A study of Arabidopsis thaliana with 12 samples.

Results

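Adding the auxin indole-3-acetic acid (IAA) to plates that already held the inhibitor L-AOPP was compared with L-AOPP alone in the dissected shoot apex of Arabidopsis thaliana, ecotype Col-0. The comparison was chosen by sample label and took 6 of the 12 arrays in the series, 3 with L-AOPP and IAA and 3 with L-AOPP. Both groups carried 50 µM L-AOPP, and the first also had 10 nM IAA. The other 6 arrays are 3 of mock-treated apices and 3 of whole mock plants on 0.1% DMSO. They are used for reference levels, for the estimate of spread and for a filter on mean intensity. Seedlings were raised on agar plates at 21 °C under 24 h light. The sample labels give an age of 4 days and the text on the series gives 7 days. How much DMSO the inhibitor plates held is not given, so a solvent match between them and the mock plates is not known. The tissue, called SAM here, was cut out with a micro knife, so a sample may hold young leaf and stem cells beside the meristem. The labels do not state whether replicates are independent cultures, and the p-values then reflect only sample-to-sample spread, possibly technical.

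Auxin is the plant hormone that places new leaves and flowers at the shoot apex and controls how cells expand. Cells sense it through TIR1/AFB receptors, which mark Aux/IAA repressor proteins for destruction and so free the auxin response factors to act on DNA. Genes of the Aux/IAA, GH3 and SAUR families are the textbook early targets, and GH3 enzymes in turn conjugate auxin to amino acids. L-AOPP is known as an inhibitor of phenylalanine ammonia-lyase, the entry enzyme of phenylpropanoid metabolism, and the series used it as an inhibitor of auxin synthesis. The question here is which functions changed when a low dose of auxin was given on top of the inhibitor.

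The tissue label was checked against meristem and organ boundary genes. All 8 such genes named on the array were above the intensity filter, among them CLV3, the stem cell signal peptide, UFO, a floral meristem F-box gene, LAS, a boundary gene, and PHV, a leaf polarity gene. Their summed signal lay between 3197 and 3353 on the arrays with IAA, between 2923 and 3150 with L-AOPP, between 3424 and 3873 in mock SAM and between 1504 and 1573 in whole plants. The root marker EXPA18 had signals of 50.3 to 52.5 with IAA and 11.6 to 55.0 with L-AOPP, against 376 to 499 in whole plants. The sum rested on the stronger members: in mock SAM against whole plants PHV was at 2.20 log2, CLV3 at 2.31, UFO at 2.16 and LAS at 1.78, but YAB5 at -0.24 and LSH9 at -1.37. The list's median log2 signal did not separate the tissues, at 6.81 to 7.17 in whole plants and 6.68 to 6.96 with L-AOPP. One mock SAM array, replicate 3, stood apart, with a 25S rRNA control signal of 164 against 5170 to 10331 on the other 11. It enters the comparison only through the estimate of spread and the mean over 12 arrays used for the intensity filter. With the filter unchanged and this array left out of the spread, 170 probe sets were called in place of 140.

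Values are MAS5 signal intensities. Signals below 20 were set to 20 before log2 was taken, and differences are given as log2 with IAA minus log2 without it, with the standard error (SE) from limma's linear model. Of the 22746 probe sets outside the array controls, 15922 passed the intensity filter and were tested. Calls required an adjusted p under 0.05 (limma, Benjamini-Hochberg over all 15922).

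In all, 140 probe sets were called, which is 0.879% of those tested. Of these, 43 were higher with IAA (0.27%) and 97 lower (0.609%). At an unadjusted limma p below 0.05, 893 were higher and 863 lower, so the lean to falls held only among the calls. The called falls were larger than the called rises: their median was -1.12 (range -3.59 to -0.37), and 54 of the 97 were at least 2-fold. Sizes of called probe sets also depend on the call rule itself. The rises had a median of 0.59 (0.33 to 1.30), and 5 of the 43 were at least 2-fold. On all 140 the arrays with IAA lay outside the range of the L-AOPP arrays, which was also true of 9.37% of tested probe sets in the higher and 9.09% in the lower direction. Separate groups are therefore shared by every called gene below and set none of them apart. Over all tested probe sets the median difference was 0.00, and the middle 90% lay between -0.37 and 0.37. Exactly 1 gene name was available for 64 of the 140, 3 had several and 73 were not listed in the annotation used, so the genes below are a part of what was called.

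**Figure D1:**
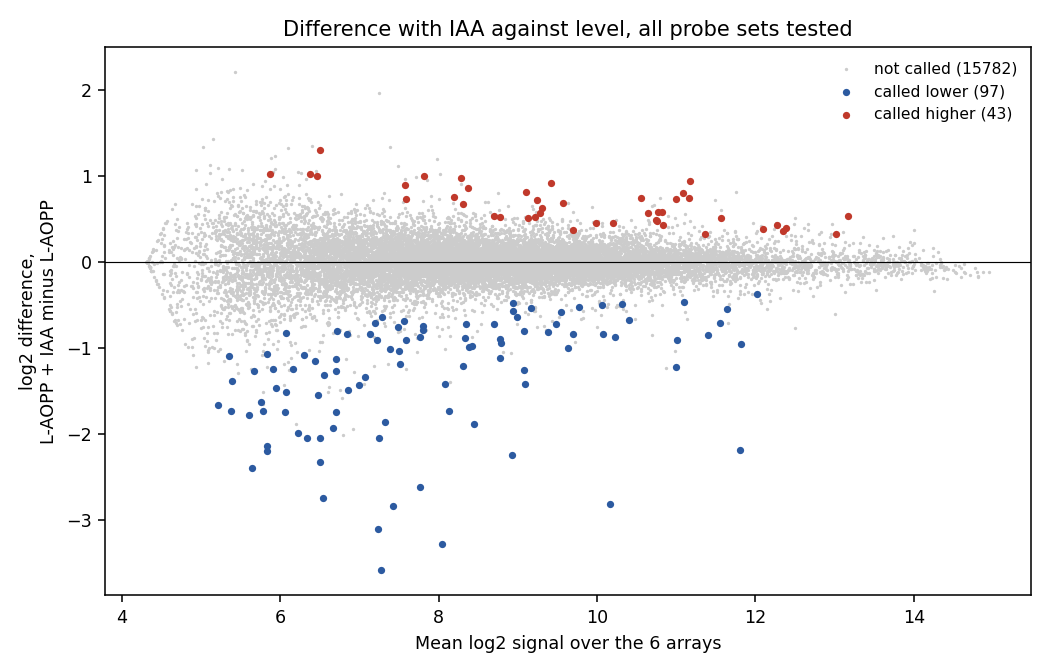
Log2 difference between L-AOPP with IAA and L-AOPP (vertical axis) against the mean log2 signal of the 6 arrays (horizontal axis), 1 point per tested probe set. The 97 called lower (blue) reach to -3.59 at low and middle levels, the 43 called higher (red) reach to 1.30, and the remaining probe sets (grey) gather around 0.

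The number of calls leaned on the other groups' arrays, from which limma borrows the estimate of spread. With only the 6 arrays compared, 2 probe sets were called (2088 had an unadjusted p below 0.05, against 1756 in the fit of all 12 arrays), and with the 9 SAM arrays 21 were. Only 23 of the 140 were called whichever single array of the 6 was left out, 13 of them with a gene name. Without replicate 1, 2 or 3 of L-AOPP with IAA the counts were 213, 94 and 33, and without those of L-AOPP they were 30, 43 and 73.

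The gene called under the most alternatives was ATC, the Arabidopsis CENTRORADIALIS gene, a relative of the flowering repressor TFL1. Its signals were 3.9, 16.4 and 26.1 with IAA and 104.5, 119.6 and 121 with L-AOPP. Every array with IAA was thus far below every L-AOPP array, and 2 of the 3 lay under the floor of 20. ATC fell by at least 2.39 on the log2 scale (SE 0.20, limma adjusted p 4.94e-05), a bound set by the floor. It was called under every alternative that tested it, with adjusted p-values of 0.0224 from the 6 arrays alone and up to 0.000734 with 1 array left out. Mock SAM signals of ATC were 4.4, 2.0 and 21.7, and whole plants had 493 ± 23.2 (SD, n = 3). Without IAA the L-AOPP apices thus held ATC signal well above mock apices and below whole plants, and with IAA it was at the low mock level. Of the other flowering and phase change genes tested, SMZ (0.15), SNZ (0.16), both AP2-type flowering repressors, and FD (0.32), the partner of FT, had adjusted p-values of 0.791, 0.868 and 0.836. That makes 1 of 4 called on this list, in the lower direction, against 0.609% of all tested probe sets called lower. A count this small is no result about the list.

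Among probe sets with exactly 1 listed gene the largest fall was that of AT5G59330, for which the annotation used gives no name; 1 probe set not listed there fell further (-3.59 ± 0.55). Its signals were 329, 37.1 and 49.8 with IAA and 974, 729.9 and 781 with L-AOPP. All 3 arrays with IAA were below the L-AOPP range, but replicate 1 held several times the signal of the other two. The difference was -3.28 ± 0.55 (SE; 9.70-fold, limma adjusted p 0.0106). AT4G22490, the most strongly expressed of the large falls, read 3916, 983 and 1241 with IAA and 9189, 6348 and 7697 without it. Again replicate 1 stood between the other arrays with IAA and the L-AOPP arrays. Its difference was -2.18 ± 0.35 (limma adjusted p 0.00824). AT1G28710 read 547, 152 and 133 against 1227, 935 and 1028, with the same order of arrays and a difference of -2.24 ± 0.39 (adjusted p 0.0129). Each of these 3 genes lost its call without replicate 3 of L-AOPP with IAA (adjusted p 0.0608 for AT5G59330, 0.0552 for AT4G22490 and 0.0652 for AT1G28710) and without replicate 1 of L-AOPP (0.062, 0.0549 and 0.0687). Their sizes also moved with replicate 1 with IAA: without it the differences were -4.26, -2.79 and -2.89, and without replicate 2 with IAA that of AT5G59330 was -2.68. In mock SAM their means were 613 ± 98.7, 6998 ± 1442 and 981 ± 180 (SD, n = 3), and in whole plants 20.7 ± 14.1, 208 ± 32.6 and 111 ± 33.8. All 3 were thus far higher in mock apices than in whole plants.

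COR15A, a cold-regulated gene for a chloroplast protein that shields membranes during freezing and that abscisic acid induces, read 221, 196 and 83.8 with IAA. The L-AOPP arrays read 567, 538 and 432. No array with IAA came near the L-AOPP range, and mock SAM, at 444 ± 27.8 (SD, n = 3), was close to the lower end of it. The difference was -1.73 ± 0.26 (SE; 3.31-fold, limma adjusted p 0.00711), called whichever array was left out (adjusted p up to 0.0471) but not from the 6 arrays alone (0.158) or the 9 SAM arrays. COR15A was the only one called of 8 abscisic acid and water stress genes tested, against 0.609% of all tested probe sets called lower. Over all tested probe sets 7818 of 15922 estimates lay below 0. The other 7 genes of the list were not called, and all 8 estimates lay below 0, with a median of -0.27. COR27 (-0.45, adjusted p 0.609), COR15B (-0.37, 0.618) and COR47 (-0.17, 0.705), of the same cold-regulated group, are examples, and the dehydrin gene LTI30 was at -0.06 (0.952).

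AT4G01390, AT2G43600 and AT5G44380 also fell and were called whichever array was left out. AT4G01390 read 27.7, 20.6 and 35.2 with IAA and 135, 142 and 89.2 without it, a difference of -2.14 ± 0.25 (limma adjusted p 0.000993). AT2G43600 read 47.6, 12 and 8.2 against 144.5, 102 and 124, and AT5G44380 18.1, 22.7 and 4.1 against 60.1, 55.2 and 85.7. In all 3 genes the arrays with IAA were well clear of the L-AOPP arrays, though for the latter pair 2 of the 3 were under the floor, so that their differences of -2.20 ± 0.28 and -1.66 ± 0.21 are lower bounds in size. AT2G43600 and AT2G43610 are adjacent genes in the TAIR10.1 assembly, with 0 genes between them. AT2G43610 fell by at least 1.74 ± 0.28 (SE; adjusted p 0.00862, or 0.0592 without replicate 1 of L-AOPP), from 154, 110.2 and 107 with L-AOPP to 47.2, 11.5 and 51.2 with IAA. Its size is a bound too, with 1 of 3 arrays with IAA under the floor. Whether the probes of both genes share target sequence was not tested.

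The remaining large falls by the naming rule were AT5G64110 (-2.05), AT2G21045 (-1.98, with 1 of 3 arrays with IAA under the floor), AT5G38320 (-1.75), AT2G19970 (-1.73, with 2 of 3 arrays under the floor), AT3G50570 (-1.63) and AT5G62150 (-1.48). Their limma adjusted p-values ran from 0.00742 to 0.0267. Each lost its call without at least 1 array. AT5G64110, at -2.65 without replicate 1 with IAA, did so without replicates 2 and 3 of L-AOPP with IAA (0.0759, 0.115) and replicates 1 to 3 of L-AOPP (0.11, 0.0743, 0.0791). AT2G19970 did so without the same 5 arrays (0.0824, 0.114, 0.0966, 0.0905 and 0.0986). AT2G21045 lost its call without replicate 1 of L-AOPP (0.0511), AT5G38320 and AT3G50570 without that array (0.051, 0.0748) or replicate 3 with IAA (0.0512, 0.0608), and AT5G62150 without replicate 2 of L-AOPP (0.0677) or replicate 3 with IAA (0.0512). AT3G50570 is another gene whose L-AOPP signals (114, 86.6 and 86.8) stood above both mock SAM (37.5 ± 9.24, SD, n = 3) and L-AOPP with IAA (43.7, 25.4 and 26.1).

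**Figure D2:**
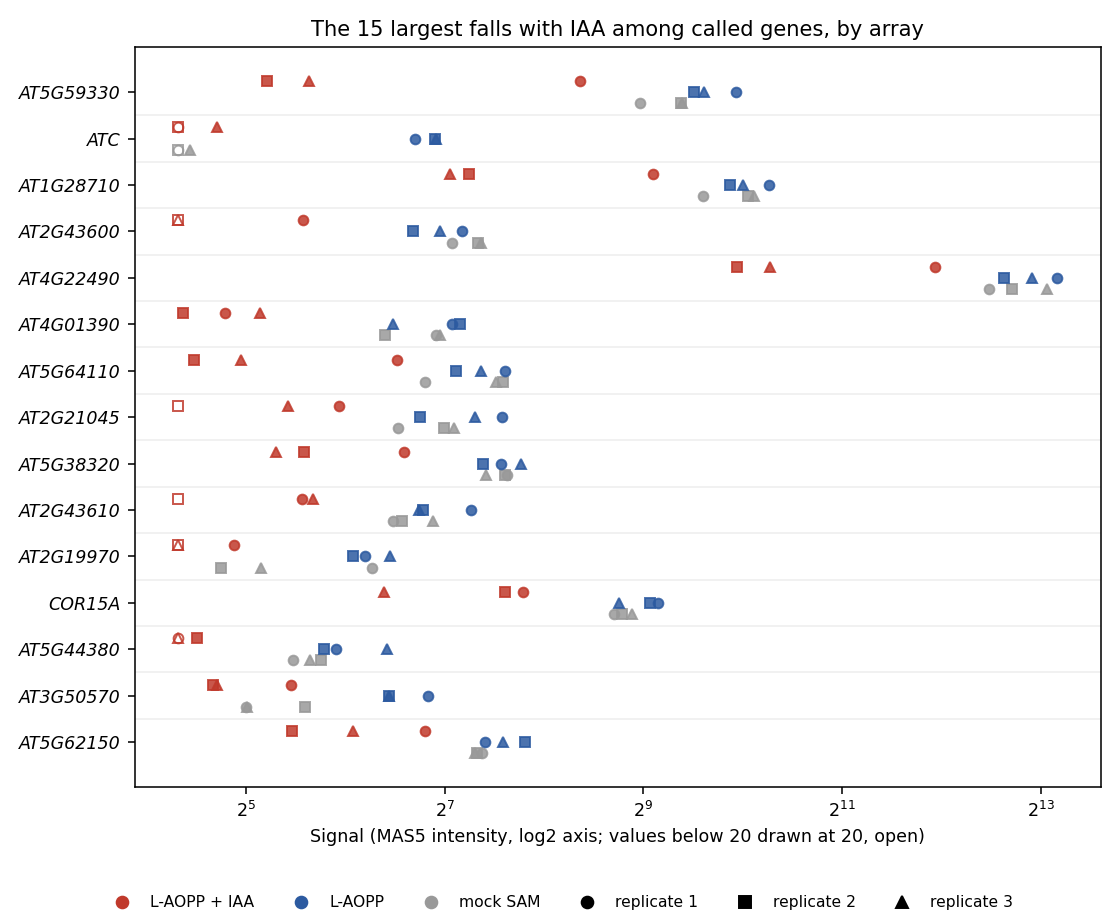
Signals of the 15 genes with the largest falls among called probe sets with exactly 1 listed gene. The log2 horizontal axis is MAS5 intensity. Arrays are L-AOPP with IAA (red), L-AOPP (blue) and mock SAM (grey). Marker shape gives the replicate, and values under 20 are open and drawn at 20. Red and blue do not overlap in any row, which follows from how the genes were chosen. In AT5G59330, AT1G28710 and AT4G22490 the red circle of replicate 1 lies nearest to the L-AOPP arrays.

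The same order of arrays was common among the falls. Replicate 1 of L-AOPP with IAA was the highest of its group in 71 of the 97 probe sets called lower (73.2%) and in 43 of the 54 that were at least 2-fold lower (79.6%), against 30.05% of all tested probe sets. The other groups were uneven too: for the same 54, replicate 1 of L-AOPP was the highest of its group in 28 (51.9%, against 31.8% of all), and replicate 3 of mock SAM in 38. Relative to the L-AOPP mean, the median of those 54 was -0.96 on replicate 1, -1.93 on replicate 2 and -1.78 on replicate 3. That all 3 lie below 0 follows from how these probe sets were chosen, since every call had groups that do not overlap. On replicate 1 the difference was smallest. Among the 43 called higher the medians were 0.58, 0.56 and 0.72, with replicate 1 highest in 25.6%. The SD within the group with IAA had a median of 0.372 log2 over the called falls, against 0.142 over all probe sets. In the L-AOPP group these were 0.184 and 0.124, in mock SAM 0.214 and 0.163, and in whole plants 0.127 and 0.144. The rises had an SD of 0.122 with IAA and 0.120 without it. Since the fit pools all groups, the SE and p-values of the falls rest partly on groups with less spread than the one with IAA. For AT5G59330 the limma adjusted p was 0.0106 in the main fit, 0.0881 from the SAM arrays and 0.166 from the compared groups alone. The part of unequal spread in this was not tested.

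**Figure D3:**
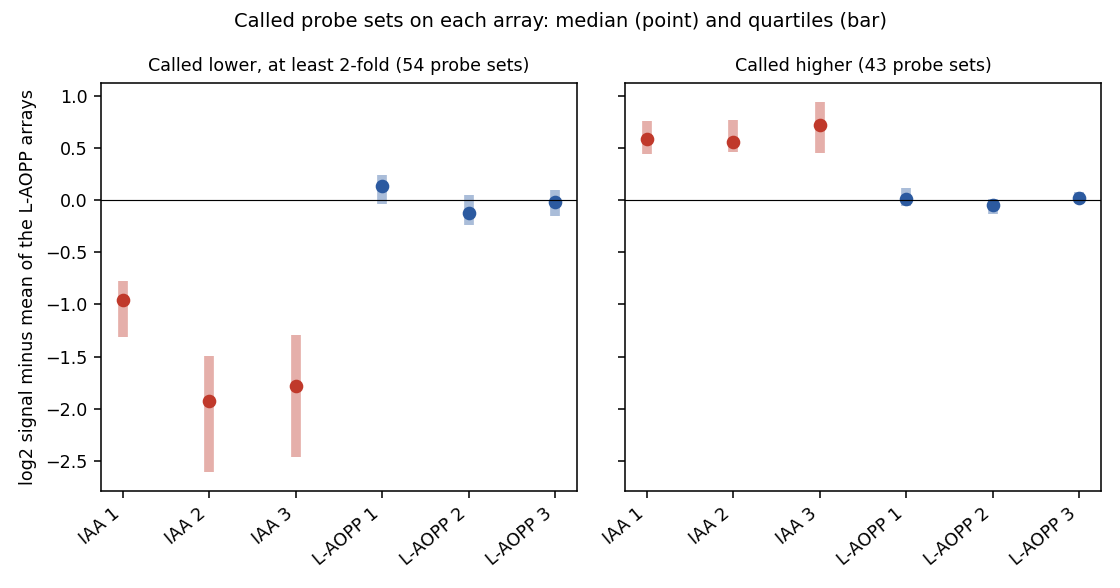
Median (point) and quartiles (bar) of log2 signal minus the L-AOPP mean on each of the 6 arrays, for the 54 probe sets called at least 2-fold lower (left) and the 43 called higher (right). Replicate 1 with IAA is at -0.96 in the left panel where replicates 2 and 3 are at -1.93 and -1.78, while the arrays with IAA lie between 0.56 and 0.72 on the right.

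The levels of the called probe sets were also compared between mock tissues. The mock arrays do not enter the difference itself, but they do enter the intensity filter and the estimate of spread. A probe set dim in the apex can pass the filter through its signal in whole plants. The shares below are therefore not independent of how probe sets were selected. Between mock SAM and whole mock plants, 14.9% of tested probe sets were at least 2-fold higher in the SAM and 12.6% at least 2-fold lower. Of the 54 large falls 12 (22.2%) were higher in the SAM and 29 (53.7%) lower, and of the 43 rises 2 (4.65%) were higher and 14 (32.6%) lower. Among the named falls, AT5G59330, AT4G22490, AT1G28710 and AT5G38320 were higher in mock SAM by 4.64, 5.06, 3.18 and 2.95 log2, and AT2G21045, AT5G44380 and AT2G43610 were lower, at -4.18, -4.12 and -3.55 log2. ATC, with mock SAM arrays under the floor, was at -4.58 or below. In such bulk samples fewer cells of a type and less RNA per cell cannot be told apart, and the part of the dissection in these differences was not tested. The log2 ratio of 3' to 5' GAPDH control was 1.29 ± 0.06 with IAA and 1.504 ± 0.122 without it (SD, n = 3; exact two-sided permutation p 0.1, the smallest that 3 against 3 arrays allow), with no overlap between the groups. For actin the exact permutation p was 0.8 and for ubiquitin 0.9. With the GAPDH ratio as a covariate 79 probe sets were called, 64 of them among the 140, so its part in the result was tested only to that extent.

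Among the smaller rises, XTH16 had the lowest adjusted p of the named genes. XTH enzymes cut and rejoin xyloglucan, the polymer that ties cellulose fibres together, and so loosen or strengthen growing walls. XTH16 signals were 2617, 2873 and 3164 with IAA and 1693, 1552 and 1691 without it. The lowest array with IAA stood well over the highest L-AOPP array. It rose by 0.81 ± 0.09 (SE; 1.75-fold, limma adjusted p 0.000993), was called whichever array was left out (up to 0.00939) and missed the threshold from the 6 arrays alone (0.0697). Mock SAM had 1530 ± 156 (SD, n = 3), which is near the L-AOPP level, so the arrays with IAA were above both. Among the 6 XTH genes tested XTH16 was the only one called, against 0.27% of all tested probe sets called higher. Over all tested probe sets 8068 of 15922 estimates were above 0. The estimates of all 6 were above 0, with a median of 0.36, and XTH33 (0.83, adjusted p 0.22), XTH19 (0.46, 0.406) and EXGT-A3 (0.27, 0.298) are the next.

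AT5G26280, unnamed in the annotation used, rose in the same way. It read 889, 1040.4 and 911 with IAA and 445.5, 539 and 511 with L-AOPP, so that its lowest value with IAA was well above the highest without. The difference was 0.93 ± 0.12 (limma adjusted p 0.00229, up to 0.0163 with 1 array left out). Mock SAM was at 429.7 ± 74.9 and whole plants at 3869 ± 223 (SD, n = 3).

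THI2.2, which encodes a thionin, a small peptide toxic to microbes, read 2954, 3912 and 2858 with IAA and 1459, 1454 and 2206 with L-AOPP. The groups did not overlap, but replicate 3 of L-AOPP lay nearer to the arrays with IAA. THI2.2 rose by 0.94 ± 0.18 (1.92-fold, limma adjusted p 0.0215). The call was lost without replicates 2 and 3 of L-AOPP with IAA (0.0821, 0.0552) and replicates 1 and 2 of L-AOPP (0.111, 0.132). Mock SAM, at 3877 ± 210 (SD, n = 3), was higher than L-AOPP on every array. Against 0.27% of all tested probe sets called higher, THI2.2 was the only one called of 10 jasmonate, wound and defence peptide genes. The median of these 10 was -0.06. The defensin genes PDF1.2 (-0.63, adjusted p 0.25) and PDF1.2b (-1.04, 0.404) had estimates on the other side of 0.

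TBL45 belongs to the TRICHOME BIREFRINGENCE-LIKE family, several members of which acetylate wall polysaccharides. Its signals were 2132, 2165 and 2138 with IAA and 1409, 1320.3 and 1558 without it, in mock SAM 1913 ± 198 (SD, n = 3). The arrays with IAA were almost equal and above all L-AOPP arrays, with a rise of 0.59 ± 0.10 (limma adjusted p 0.0129). Of 19 family members tested it was the only one called, against 0.879% of all tested probe sets, and the list's median was 0.16. Where a family was listed because a member was called, a count of at least 1 follows from that choice. TBL38 (0.53, adjusted p 0.0534) was the nearest of the rest. TBL45 lost its call without replicate 3 with IAA (0.0567) and without replicates 1 and 2 of L-AOPP (0.0649, 0.0856).

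CP1, a cysteine proteinase gene, rose by 1.01 ± 0.22 (SE; limma adjusted p 0.0448), from 145, 159 and 172 with L-AOPP to 238, 364 and 375 with IAA. Every array with IAA was higher, yet the call held only without replicate 1 with IAA (0.0102) and was lost without any other single array (0.0931 to 0.189). Of 4 serine carboxypeptidase-like genes SCPL34 rose by 0.54 ± 0.09 (adjusted p 0.0131, and 0.0592 to 0.0719 without replicate 3 with IAA or replicates 1 and 2 of L-AOPP). SCPL49 fell by 0.48 ± 0.11 (adjusted p 0.0478, and 0.0817 to 0.221 without any array but replicate 1 with IAA), and the other 2 were not called. Over all tested probe sets 0.879% were called. The 5 subtilases, 0 of which were called, had a median of 0.16.

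The remaining rises by the naming rule were AT3G59340 (1.02), AT4G18650 (1.00), AT1G54120 (0.90), AT3G10720 (0.73), AT5G01015 (0.69), AT5G41400 (0.63), UPF3 (0.57), AT2G45180 (0.54) and ATGP4 (0.52), with limma adjusted p-values of 0.0198 to 0.0443. UPF3 is a factor of nonsense-mediated mRNA decay, which removes transcripts with early stop codons. UPF3 and AT5G01015 lost the call without any single array (UPF3 0.0608 to 0.218, AT5G01015 0.0721 to 0.238), as did AT4G18650 (0.058 to 0.153). The others lost it without 4 or 5 of the 6 arrays, apart from AT5G41400, which lost it without replicate 2 with IAA (0.0779) and replicates 1 and 3 of L-AOPP (0.0934, 0.0875).

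**Figure D4:**
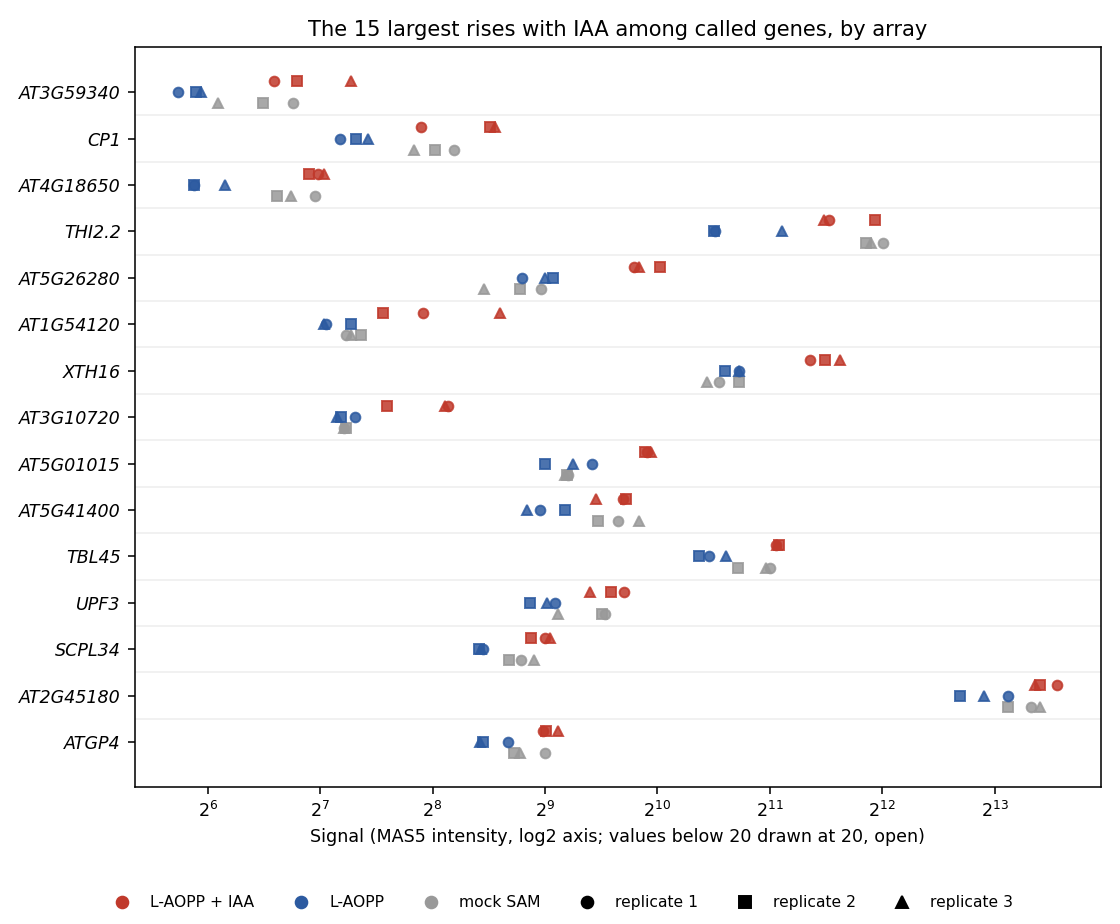
Signals of the 15 genes with the largest rises among called probe sets with exactly 1 listed gene. The log2 horizontal axis is MAS5 intensity. Arrays are L-AOPP with IAA (red), L-AOPP (blue) and mock SAM (grey), and marker shape gives the replicate. Red and blue do not overlap in any row, which follows from how the genes were chosen. The rises run from 0.52 to 1.02 log2, and for XTH16 and AT5G26280 the mock arrays lie with or below the L-AOPP arrays.

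None of the auxin gene lists held a called member, against 0.879% called over all probe sets. The 3 Aux/IAA repressor genes tested were IAA29 (0.30 ± 0.31 SE), IAA18 (0.03 ± 0.09) and IAA30 (0.01 ± 0.19), with limma adjusted p-values of 0.81, 0.94 and 0.997. IAA18 read 636, 618 and 662 with IAA and 603, 596 and 676 without it, so the groups overlapped. Its 95% interval ran from -0.15 to 0.22, and that of IAA29 from -0.36 to 0.95. The 4 GH3 genes were GH3.17 (0.32 ± 0.12, adjusted p 0.321), GH3.9 (0.15, 0.832), WES1 (0.15, 0.845) and GH3.3 (0.01, 0.998). GH3.17, with signals of 1713, 2067 and 1498 against 1369, 1493 and 1341, did not overlap between the groups, and its interval of 0.05 to 0.58 left out 0 before adjustment over the array. GH3.3 read 1055, 920.0 and 662 against 1027, 831 and 744.5, which overlapped.

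Auxin synthesis was represented by the YUCCA flavin monooxygenase genes YUC4 (0.29, adjusted p 0.681) and YUC2 (-0.23, 0.885). The SAUR list had AT3G53250 (0.20, 0.745), inactivation had UGT74D1 (0.03, 0.976), and transport and perception had the kinase gene WAG2 (0.21, 0.866). Of the auxin-inducible transcription factors, the homeodomain gene HAT2 was at 0.18 ± 0.14 (0.712) and the lateral organ boundaries domain gene LBD16 at -0.27 (0.879). HAT2 signals were 487, 376 and 423 with IAA, 378, 429 and 328 with L-AOPP and 639 ± 99.7 (SD, n = 3) in mock SAM. The groups with L-AOPP overlapped and lay below the mock mean. No probe set was named as an auxin response factor in the annotation used. With 0 to 4 tested members each, the auxin lists cover a small share of the auxin genes.

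Other lists of wall genes held no called member, against 0.879% called over all tested probe sets. Lists were built mostly from symbol patterns, so a called gene given only by a locus tag can be missed. The 12 expansins, proteins that loosen walls at acid pH, had 0 called, a median of 0.24 and estimates from -0.89 to 0.80. Of these estimates 10 were above 0, against 8068 of 15922 over all tested probe sets. EXPA8 read 492, 343 and 448 with IAA against 322, 255.5 and 303 (0.53 ± 0.14, limma adjusted p 0.095), and EXLB1 221.5, 149 and 119.5 against 332, 344 and 218 (-0.89 ± 0.23, 0.0935). EXPA8 did not overlap between groups, while EXLB1 did at replicate 1 with IAA and replicate 3 of L-AOPP. EXPA4 was at 794, 778 and 789.9 against 1019, 1001 and 1027 (-0.37 ± 0.11, 0.181). Its arrays were tight and separate, and mock SAM was at 1285 ± 270 (SD, n = 3). The 16 cellulose and hemicellulose synthesis genes had 0 called and a median of 0.13, and the 2 pectin enzyme genes were at 0.34 and -0.41.

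Meristem and boundary genes had 0 of 8 called, against 0.879% over all tested probe sets. Their median was 0.24, with 6 estimates above 0. UFO read 114, 163 and 159 with IAA and 94.1, 71.9 and 84.3 with L-AOPP, and 145 ± 19.1 (SD, n = 3) in mock SAM. Every array with IAA was above every L-AOPP array, but at 0.79 ± 0.21 the limma adjusted p was 0.103. LAS (0.57, adjusted p 0.394), the leaf gene YAB5 (0.33, 0.225) and CLV3 (0.43, 0.746) had estimates in the same direction, and LSH9 was at -0.71 (0.455). The 6 cell cycle and replication genes had 0 called and a median of 0.01. The Aurora kinases AUR1 (-0.03) and AUR2 (-0.01), which act in mitosis, read 1521.7 to 1654 and 1304 to 1327 with IAA, and 1517 to 1758 and 1251 to 1365 without it. Their levels overlapped, with 95% intervals that were narrow for this array (SE 0.08 for both).

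**Figure D5:**
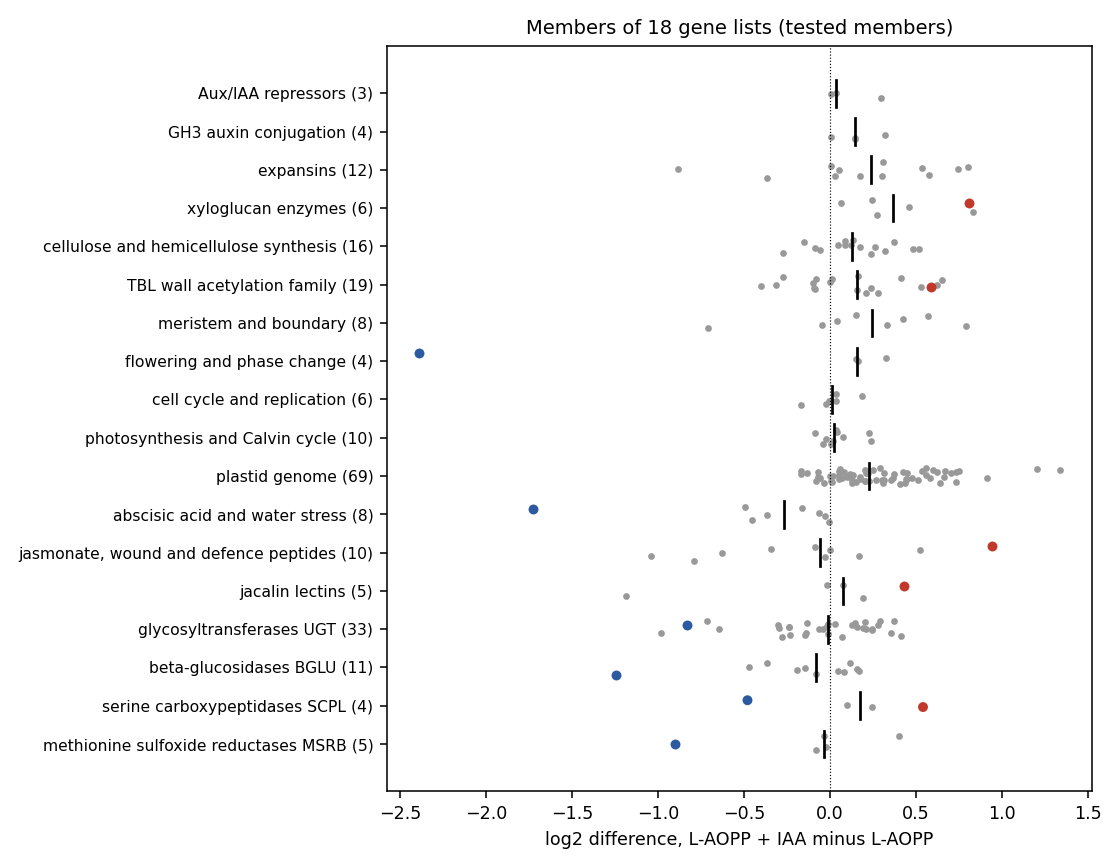
Log2 difference of each tested member (point) of 18 gene lists, with the list median as a vertical bar and the number of tested members in brackets. Called members are red (higher) or blue (lower); ATC at -2.39 and COR15A at -1.73 stand apart on the left, and the auxin, expansin, cell cycle, photosynthesis and plastid lists hold no called member.

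Metabolic families held single called members, against 0.879% called over all tested probe sets. As some families were listed because a member was called, such counts are not results about the families. MSRB5, a methionine sulfoxide reductase that repairs oxidised methionine, fell by 0.90 ± 0.17 (limma adjusted p 0.0223), from 3136, 3382 and 2092 with L-AOPP to 1457, 1844 and 1268 with IAA. No array overlapped, with L-AOPP replicate 3 nearest to the arrays with IAA, and mock SAM was at 1736 ± 316 (SD, n = 3). The other 4 of its family were not called. UGT87A2, of the UDP-glucosyl transferases that attach sugars to small molecules, fell by 0.83 ± 0.17 (0.0308) and was 1 of 33 UGT genes called, whose median was -0.01. It read 120, 116 and 84.7 with IAA, 193, 200.4 and 172 with L-AOPP and 100.3 ± 18.01 in mock SAM. BGLU33, a beta-glucosidase gene, fell by 1.25 ± 0.24 (0.0215) and was 1 of 11 of that family called. JAL34, a jacalin-related lectin gene, rose by 0.43 ± 0.07 (0.00742), from 4159, 4297 and 4312 to 5907, 5565 and 5722. These are tight and separate groups, and 4 other lectin genes were not called, among them JAL23 (-1.19, 0.118).

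Each of these calls was lost without 1 or more arrays. MSRB5 lost it without replicate 3 with IAA (0.118) and L-AOPP replicates 1 and 2 (0.111, 0.14). UGT87A2 did so without replicate 3 with IAA (0.131) and each L-AOPP array (0.058 to 0.152), and BGLU33 without replicates 2 and 3 with IAA (0.0779, 0.101) and replicates 1 and 2 of L-AOPP (0.111, 0.113). JAL34 lost it only without replicate 1 of L-AOPP (0.051). PDC2, for pyruvate decarboxylase of fermentation, fell by 0.53 ± 0.11 (0.0424) and kept its call only without replicate 1 with IAA (0.00674), its adjusted p being 0.0847 to 0.221 without any other array.

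Outside the naming rule, and picked after their values were seen, 6 further falls of about 2-fold or less were called whichever array was left out. AT2G25510 read 2487, 3142 and 2253 with IAA and 4938, 5103 and 5053 with L-AOPP. The L-AOPP arrays were nearly equal and all well above, with a fall of 0.95 ± 0.11 (limma adjusted p 0.000964) and mock SAM between 2888 and 3479. AT2G25530, which lies 1 gene away from it, fell by 0.94 ± 0.15 (0.00735), and its mock signals (581 to 633) were at the L-AOPP level (580.0 to 637). The other 4 were AT3G53980 (-0.997), AT4G14020 (-0.88), AT4G33550 (-0.84) and AT3G45160 (-0.72).

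Among the lists that bear on other functions, 0 members were called for photosynthesis (10 tested, median 0.02), phenylpropanoid and lignin (5, -0.05), flavonoid (5, -0.04), glucosinolate (3, -0.04), ethylene (2, 0.05), cytokinin (2, -0.32), gibberellin and brassinosteroid (3, -0.09), glutathione transferases (11, -0.08), autophagy and senescence (13, 0.06), iron and metal (3, 0.04), P450 (11, 0.05) and WRKY (6, -0.14) genes. Over all tested probe sets 0.879% were called, so lists this small would mostly hold none, and these zeros are no result about the functions. Sugar transport and aquaporin genes had 0 of 7 called and a median of 0.33. SWEET11, a sucrose exporter, read 159, 301 and 400.3 with IAA and 128, 151 and 131 with L-AOPP (0.97 ± 0.29, limma adjusted p 0.162). ICL, an isocitrate lyase gene whose enzyme serves seedlings living on stored oil, was listed at 13.8, 202.5 and 196 with IAA and 2.4, 6.2 and 2.5 with L-AOPP. Replicate 1 with IAA was under the floor and the other 2 arrays far above it, so at 2.21 ± 0.61 it was not called (adjusted p 0.123). In all, the 57 lists held 361 tested genes, of which 5 were called higher and 6 lower (3.05%, with families added because a member was called) and the median was 0.08.

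Over all tested probe sets 0.879% were called and 8068 of 15922 estimates were above 0. The 69 plastid-encoded genes had 0 called, and 60 of the 69 estimates were above 0 with a median of 0.22. Their median log2 signal was 11.52, 11.50 and 11.20 on the arrays with IAA and 10.97, 10.95 and 11.51 with L-AOPP. Replicate 3 of L-AOPP was thus at the level of the arrays with IAA. Without it 67 of the 69 were above 0, with a median of 0.43 and 2 called; without replicate 2 of L-AOPP the median was 0.07, with 47 above 0. The plastid difference therefore rested on which L-AOPP arrays were counted. Examples were psbK, a photosystem II subunit (0.31 ± 0.10, limma adjusted p 0.22), and psbT (1.20 ± 0.40, 0.223), which read 487, 330 and 347 with IAA and 145, 94.9 and 333 with L-AOPP. Of the 10 nuclear photosynthesis genes, 7 had estimates above 0, with PSBW at 0.22 (0.27), LHCB4.2 at 0.24 (0.303) and LHCB4.1 at -0.09 (0.728). Whether the plastid and nuclear lists differ was not tested.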

How the data were processed

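The deposited table holds linear signal intensity per probe set for 12 arrays; per the submitters' processing notes the authors made it with MAS5, version not stated, and the values carry no detection call. From it, signals were floored at 20 and log2 taken, the 64 control probe sets and the 30% of probe sets with the lowest mean log2 (6824) were left out, and 15922 were fitted with limma 3.58.1 (R 4.3.3; lmFit, eBayes with intensity trend), 1 coefficient per group over all 12 arrays with 8 residual degrees of freedom. Tests were two-sided with Benjamini-Hochberg adjustment. The fit was tested on simulated data. The 3 arrays per group limit the precision.

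Gene names came from the platform annotation, matched to the TAIR10.1 gene table for names and neighbours only: 13513 probe sets had 1 gene (13484 matched), 503 several and 8730 were not listed. Named genes are the 15 largest rises and 15 largest falls among called probe sets with 1 gene and groups that do not overlap, and from each list up to 4 called members or else the 2 with the smallest p. Members and lists were chosen with earlier results of these data known. The list patterns were trimmed after values were seen, and 4 families were added because a member was called. Alternatives changed the floor, scaling, filter, samples, trend, weights, replicate block and GAPDH covariate, and left out each array. Sequences are not given here.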

Additional observations from a re-analysis of the deposited data

How the results depend on the processing

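In place of the 140 calls there were 137 with no floor, 119 with a floor at 50, 136 with quantile normalization and 126 with median centring. There were 14 with no intensity filter (22746 probe sets tested), 86 with the lowest 50% left out, 2 from the 2 groups alone, 21 from the 9 SAM arrays, 57 without the intensity trend, 253 with array weights and 79 with the GAPDH covariate. With 1 array left out the count ran from 30 to 213. The median difference over all probe sets stayed within the spread between arrays throughout, and 0 of the 140 called probe sets changed sign under any alternative that tested them. For most alternatives this was fixed in advance. The groups did not overlap on any of the 140, so leaving out or weighting arrays could not change a sign. The stable signs are therefore no check on the calls.

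Of the 30 named rises and falls, 5 stayed called with no filter, 16 with the lowest 50% left out (which removed 12 untested, so that 2 of 18 lost the call), 1 with the 2 groups alone, 8 with the 9 SAM arrays, 14 without the trend, 19 with the covariate and 9 to 25 with 1 array left out. Over all list members the number called, 11 in the main fit, was 4, 7, 1, 4 and 6 under the first 5 of these. With 1 array left out it was 3 to 17. Unlike the counts for the 30, these can include members not called in the main fit. ATC was the only one of the 30 called from the 2 groups alone. The other probe set called there was that of AT5G58390 (limma adjusted p 0.0219), outside the naming rule. It read 833.9, 814.1 and 784.8 with IAA and 1411.5, 1492.5 and 1432.4 with L-AOPP. In the main fit its difference was -0.83 ± 0.15 (SE, limma adjusted p 0.0161). That call was lost without replicate 3 with IAA (0.0726) or any L-AOPP array (0.0553 to 0.0865).

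The groups share replicate numbers 1 to 3. Deviations of same-numbered arrays from their group means correlated at 0.123, 0.0471 and 0.109. Differently numbered pairs ran from -0.200 to 0.0931, the highest being replicate 2 with IAA and replicate 1 of L-AOPP. The same-numbered values were thus small but all above 0. Whether a number marks a shared batch was not tested. With the replicate block in the 9 SAM arrays 1 probe set was called, ATC, as 1 of the named genes and 1 list member. The setting without mock SAM replicate 3 was chosen after seeing the data. With 3 arrays a group, sizes under the floor are bounds, and the causes of these changes were not tested.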
